A study of Mus musculus with 6 samples.

Results

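The genes described here are 10 transcription factors and repressors of the circadian clock and its direct output: Clock, Per1, Per3, Cry1, Cry2, Nr1d1, Nr1d2, Dbp, Tef and Nfil3. They were chosen by name, as the rows of the deposited table whose platform annotation gives a member's symbol and no other, with the probe set of the highest mean where a gene had several. All 10 were found among 22180 genes with such a probe set, and all 10 were among the 11090 genes tested, those in the upper 50% of mean signal. The study compared livers of male mice with a whole-body knockout of Gpr146 (KO), a G protein-coupled receptor, with livers of wild-type (WT) littermates, 3 mice per genotype and 1 array per mouse. All mice were on a C57BL/6J background, 24 weeks old, chow-fed, fasted for 16 hours and then refed for 6 hours. The sources used here state neither which part of Gpr146 was deleted nor the clock hour at which each liver was taken.

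The mammalian clock is a feedback loop of transcription. CLOCK and its partner BMAL1, encoded by Arntl, bind E-boxes and activate the Per and Cry genes, whose proteins return to the nucleus and repress that activation. In a second loop the same pair drives Nr1d1 and Nr1d2, which encode the nuclear receptors REV-ERB alpha and beta and repress Arntl, Clock, Cry1 and Nfil3 through ROR elements. Dbp and Tef encode bZIP activators and Nfil3 a bZIP repressor that share D-box sites in output genes, among them genes of drug and lipid metabolism in the liver. In mouse liver Nr1d1, Nr1d2, Dbp, Tef, Per1 and Per3 are known to peak from the afternoon to the time around dusk, while Cry1, Nfil3 and Clock peak later in the night or toward dawn, and feeding time can shift these rhythms.

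RefSeq promoters (GRCm38.p6) were found for all 10 genes, as 14 start sites. The 250 bases before each start were searched on both strands for the E-box CACGTG, the D-box TTATGTAA or TTACGTAA, and the half-site AGGTCA of ROR elements. Of 32851 such windows over all genes, 6.02% held the E-box, 0.931% the D-box and 14% the half-site. Among the 10 genes the E-box was found in 3 (Cry1, Tef, Per1), the D-box in 1 (Per3) and the half-site in 4 (Nr1d2, Per1, Clock, Nfil3). These counts are per gene and the shares per window, and a gene with several starts had several windows. The windows printed here are those of Cry1, Tef and Nfil3, the members whose KO and WT values did not overlap, of Per1, which like Cry1 and Tef holds an E-box, and of Per3, with a pair of D-boxes. Capitals mark the motifs and each window runs 5′ to 3′ toward the start site. A match describes these letters only and is not evidence of binding.
Cry1 (chr10:85185055-85185304, minus strand, E-box): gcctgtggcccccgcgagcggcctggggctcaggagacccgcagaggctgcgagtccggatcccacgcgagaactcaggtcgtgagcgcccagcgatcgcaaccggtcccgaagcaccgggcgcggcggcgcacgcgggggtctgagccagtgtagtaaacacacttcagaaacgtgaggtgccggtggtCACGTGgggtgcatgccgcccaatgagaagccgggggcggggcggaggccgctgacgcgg
Tef, first start (chr15:81802423-81802672, plus strand, E-box): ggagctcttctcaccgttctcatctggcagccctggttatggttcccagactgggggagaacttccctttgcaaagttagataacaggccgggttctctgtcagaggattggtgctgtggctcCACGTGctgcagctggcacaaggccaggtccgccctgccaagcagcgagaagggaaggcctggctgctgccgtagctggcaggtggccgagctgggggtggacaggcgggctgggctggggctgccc
Tef, second start (chr15:81811164-81811413, plus strand, E-box): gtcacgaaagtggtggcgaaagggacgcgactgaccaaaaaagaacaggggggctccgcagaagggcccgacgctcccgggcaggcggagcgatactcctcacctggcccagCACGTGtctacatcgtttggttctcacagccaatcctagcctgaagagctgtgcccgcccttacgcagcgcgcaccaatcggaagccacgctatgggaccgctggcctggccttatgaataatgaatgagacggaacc
Nfil3 (chr13:52981040-52981289, minus strand, half-site): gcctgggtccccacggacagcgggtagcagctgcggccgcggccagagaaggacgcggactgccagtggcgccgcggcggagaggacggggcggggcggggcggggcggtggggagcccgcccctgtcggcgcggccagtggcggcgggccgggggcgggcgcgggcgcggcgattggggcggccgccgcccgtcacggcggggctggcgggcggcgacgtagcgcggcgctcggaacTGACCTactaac
Per1 (chr11:69098699-69098948, plus strand, E-box and half-site): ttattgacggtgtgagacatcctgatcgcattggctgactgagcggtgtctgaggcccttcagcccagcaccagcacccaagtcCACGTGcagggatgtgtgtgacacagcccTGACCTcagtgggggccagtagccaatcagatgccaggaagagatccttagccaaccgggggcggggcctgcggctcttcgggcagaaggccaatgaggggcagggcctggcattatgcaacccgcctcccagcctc
Per3 (chr4:151044666-151044915, minus strand, D-boxes): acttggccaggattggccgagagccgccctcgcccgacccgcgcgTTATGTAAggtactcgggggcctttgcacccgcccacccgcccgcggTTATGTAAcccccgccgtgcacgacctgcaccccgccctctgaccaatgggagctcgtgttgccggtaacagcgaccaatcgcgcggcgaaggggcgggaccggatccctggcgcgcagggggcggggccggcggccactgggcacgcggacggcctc
The E-box began 60 bases before the start of Cry1, and 127 and 138 bases before the starts of Tef. In Per1 it began 166 bases before the first start. The window of the second Per1 start, not printed, held no match. The D-boxes of Per3 began 205 and 158 bases before its start, and the half-site of Nfil3 12 bases before it.

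All values are the authors' log2 signals per probe set, for which the number of arrays limits the precision. Array medians lay between 2.67 and 2.73, and correlations between arrays, across probe sets, ran from 0.983 to 0.988. Gpr146 measured 4.61, 4.28 and 3.87 in KO mice 1 to 3, against 5.96, 5.56 and 5.65 in WT mice 1 to 3, a difference of -1.47 ± 0.19 (SE; limma adjusted p = 0.0702, from 0.0204 to 0.268 over the alternatives). Whether these probes lie in the deleted part is not known here, so the remaining signal does not check the deletion. All 7 hepatocyte markers passed the signal filter, with Alb, the gene of serum albumin, at 11.9 in every mouse. Immediate early genes set 2 WT mice apart: the 11 tested (Fos, Fosb, Jun, Junb, Egr1, Egr2, Ier2, Ier3, Atf3, Nr4a1 and Dusp6) averaged -0.83, -1.04 and -0.94 in KO mice 1 to 3, against 1.83, 1.79 and -0.80 in WT mice 1 to 3, as log2 values centred on each gene's mean over the 6 mice. All 11 had an unadjusted limma p under 0.05 and a negative difference, with 0 passing after adjustment over all genes. Without WT mouse 3 all 11 were again lower in KO, and 10 of them passed, with differences of -4.99 to -1.33 (limma adjusted p at most 0.0213). Ier3, at -0.37, did not pass (limma adjusted p = 0.354). WT mouse 3 was singled out by its values in these same genes, so this fit describes them and is no test of them. The average of WT mouse 3 was close to the KO averages, while in Ier3, Dusp6, Nr4a1 and Egr2 it lay above every KO mouse. Member differences are therefore also given without WT mouse 3.

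None of the 10 clock and output factors passed the test between KO and WT (limma, Benjamini-Hochberg adjusted p between 0.363 and 0.994, 10 genes). Over all genes tested 0.0361% passed. At an unadjusted p under 0.05 there were 3 members, Nfil3, Cry1 and Tef, each higher in KO, where 6.16% of all genes tested were higher at that level, 2.98% were lower and 9.13% were either. Without WT mouse 1 only Nfil3 stayed under that level, and without KO mouse 3 Nfil3 and Tef did. With the mean of probe sets Nfil3 and Cry1 did. Without KO mouse 2 Nfil3 and Cry1 stayed under it, Tef did not, and Dbp, lower in KO, came under it. Dbp also joined Nfil3, Cry1 and Tef there without WT mouse 3, and with the replicate block of same-numbered mice fitted. In the fit of all 6 mice Nfil3, Cry1 and Tef were the members whose KO mice all lay above all WT mice. That pattern was found in 9.63% of the genes tested. No member had every KO mouse below every WT mouse, found in 5.16%. The median difference of the members was 0.11 on the log2 scale, beside 0.03 over all genes tested. Over all genes 6402 of the 11090 tested were positive. Of the members 7 were positive and 3 negative, with 6 positive after quantile normalization or median centring. The members were chosen by name with results of these data known, so this count is a description.

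**Figure D1:**
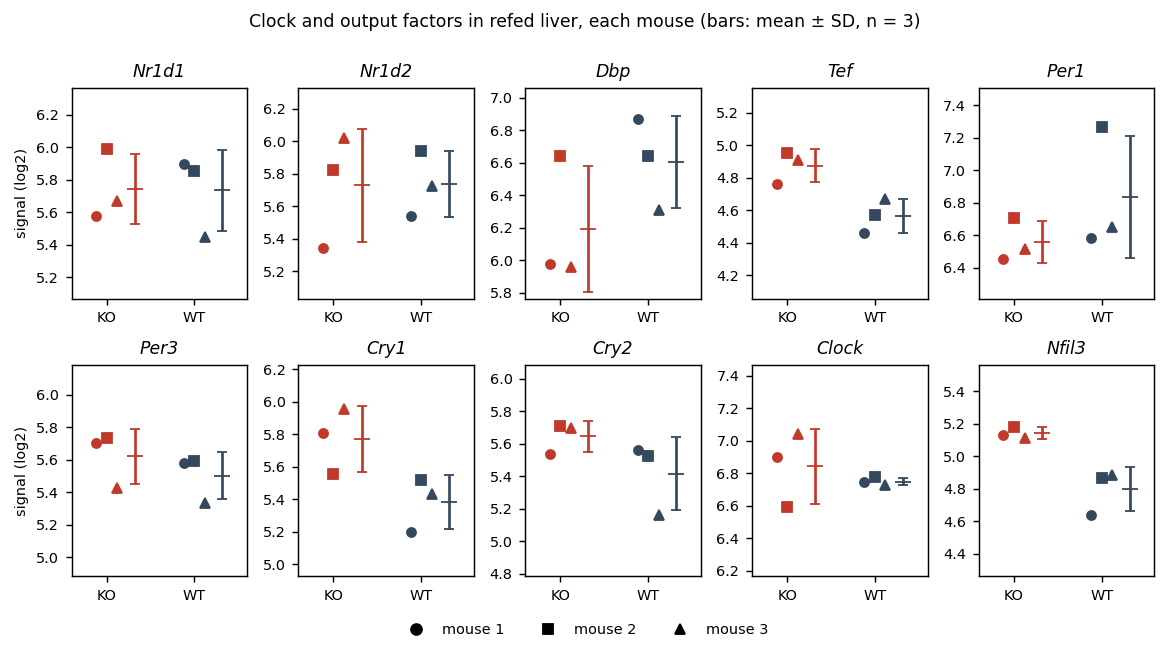
Log2 signal of the 10 clock and output factors (y axis) in KO and WT refed livers (x axis); each point is 1 mouse, with its number shown by the symbol, and the bars are the mean ± SD of 3 mice. Each panel spans the same range of log2 signal. The KO points lie above all WT points for Tef, Cry1 and Nfil3 and overlap the WT points for the other 7 genes.

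Among the repressors of the clock, Cry1, a cryptochrome that represses CLOCK and BMAL1, was at 5.81, 5.55 and 5.95 in KO mice 1 to 3, against 5.20, 5.52 and 5.43 in WT mice 1 to 3. KO mouse 2 lay just above WT mouse 2, and the other KO mice lay well above every WT mouse. The means were 5.77 ± 0.20 in KO and 5.38 ± 0.17 in WT (SD, n = 3 each), a difference of 0.39 ± 0.13 (SE), or 1.31-fold. It did not pass in limma (adjusted p = 0.431), and its exact two-sided permutation p of 0.1 is the smallest that 3 against 3 allows. Omitting WT mouse 3 gave 0.41. The second cryptochrome gene, Cry2, whose liver rhythm is shallow, was at 5.54, 5.71 and 5.69 in KO mice 1 to 3, against 5.56, 5.52 and 5.16 in WT mice 1 to 3. The groups overlapped, and WT mouse 3 was the lowest of the 6. The difference was 0.23 ± 0.13 (limma adjusted p = 0.620), and 0.10 without WT mouse 3.

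Per1, a period gene that also responds to cAMP and glucocorticoids, was at 6.45, 6.71 and 6.51 in KO mice 1 to 3, against 6.58, 7.26 and 6.65 in WT mice 1 to 3. WT mouse 2 stood above the rest and the other 5 mice shared one range. The difference of -0.27 ± 0.18 (SE; limma adjusted p = 0.668) was -0.06 when WT mouse 2 was omitted and -0.36 when WT mouse 3 was. WT mouse 1, as high as WT mouse 2 in immediate early genes, did not share its high Per1. Per3, a second period gene, was at 5.70, 5.73 and 5.43 in KO mice 1 to 3, against 5.58, 5.59 and 5.33 in WT mice 1 to 3. The groups overlapped, with mouse 3 the lowest of each genotype, and the difference was 0.12 ± 0.12 (limma adjusted p = 0.809), or 0.03 without WT mouse 3.

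Clock, the activator that pairs with BMAL1, was at 6.90, 6.59 and 7.04 in KO mice 1 to 3, against 6.74, 6.77 and 6.73 in WT mice 1 to 3. The 3 WT mice lay within a narrow band, with an SD of 0.02, and the KO mice lay on both sides of it, with an SD of 0.23. The difference was 0.09 ± 0.12 (SE; limma adjusted p = 0.862), and ran from -0.0052 without KO mouse 3 to 0.22 without KO mouse 2. Omitting WT mouse 3 gave 0.08.

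The REV-ERB genes gave almost equal means in both genotypes. Nr1d1 was at 5.58, 5.99 and 5.67 in KO mice 1 to 3, against 5.90, 5.86 and 5.45 in WT mice 1 to 3, with means of 5.75 ± 0.22 and 5.73 ± 0.25 (SD, n = 3 each). Its difference was 0.01 ± 0.15 (SE; limma adjusted p = 0.990), with a 95% interval of -0.34 to 0.36. Nr1d2 was at 5.34, 5.82 and 6.02 in KO mice 1 to 3, against 5.54, 5.94 and 5.73 in WT mice 1 to 3. Its difference was -0.0083 ± 0.18 (limma adjusted p = 0.994), with a 95% interval of -0.42 to 0.40. Only the Nr1d2 interval includes a difference as large as that of Cry1, and both directions changed when 1 mouse was left out. Nr1d1 gave -0.13 when WT mouse 3 was omitted and -0.11 when KO mouse 2 was. Nr1d2 gave 0.19 when KO mouse 1 was omitted and 0.09 when WT mouse 2 was, and stayed at -0.01 when WT mouse 3 was. The pair did not order the mice alike, since KO mouse 2 was the highest for Nr1d1 and KO mouse 3 for Nr1d2.

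The bZIP output factors differed among themselves in direction. Nfil3, the D-box repressor, was at 5.13, 5.18 and 5.11 in KO mice 1 to 3, against 4.64, 4.86 and 4.89 in WT mice 1 to 3. The KO mice lay within a narrow band above every WT mouse. The means were 5.14 ± 0.04 in KO and 4.80 ± 0.14 in WT (SD, n = 3 each), a difference of 0.34 ± 0.10 (SE), or 1.27-fold, with the smallest adjusted p of the members at 0.363 (limma; 0.348 to 0.623 over the alternatives) and an exact permutation p of 0.1. Omitting WT mouse 3 gave 0.39. Tef, a D-box activator, was at 4.76, 4.95 and 4.91 in KO mice 1 to 3, against 4.46, 4.57 and 4.67 in WT mice 1 to 3. Its groups did not overlap either, and the difference was 0.31 ± 0.10, or 1.24-fold (limma adjusted p = 0.416, exact permutation p = 0.1). A second Tef probe set was at 2.42, 2.53 and 2.95 in KO mice 1 to 3, against 2.75, 2.41 and 2.48 in WT mice 1 to 3, under the filter and with overlapping groups. With the mean of both probe sets the Tef difference was 0.20, and without WT mouse 3 it was 0.36.

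Dbp, the second D-box activator and a direct target of CLOCK and BMAL1, had the largest negative difference of the members. It was at 5.98, 6.64 and 5.96 in KO mice 1 to 3, against 6.87, 6.64 and 6.31 in WT mice 1 to 3. KO mice 1 and 3 were below every WT mouse, while KO mouse 2 was level with WT mouse 2. The means were 6.19 ± 0.39 in KO and 6.61 ± 0.28 in WT (SD, n = 3 each), a difference of -0.41 ± 0.21 (SE), or 1.33-fold higher in WT, which did not pass (limma adjusted p = 0.594, exact permutation p = 0.3). Omitting KO mouse 2 gave -0.64, omitting WT mouse 3 gave -0.56 and omitting WT mouse 1 gave -0.28. Dbp and Tef thus had opposite signs; the difference between these genes was not tested.

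**Figure D2:**
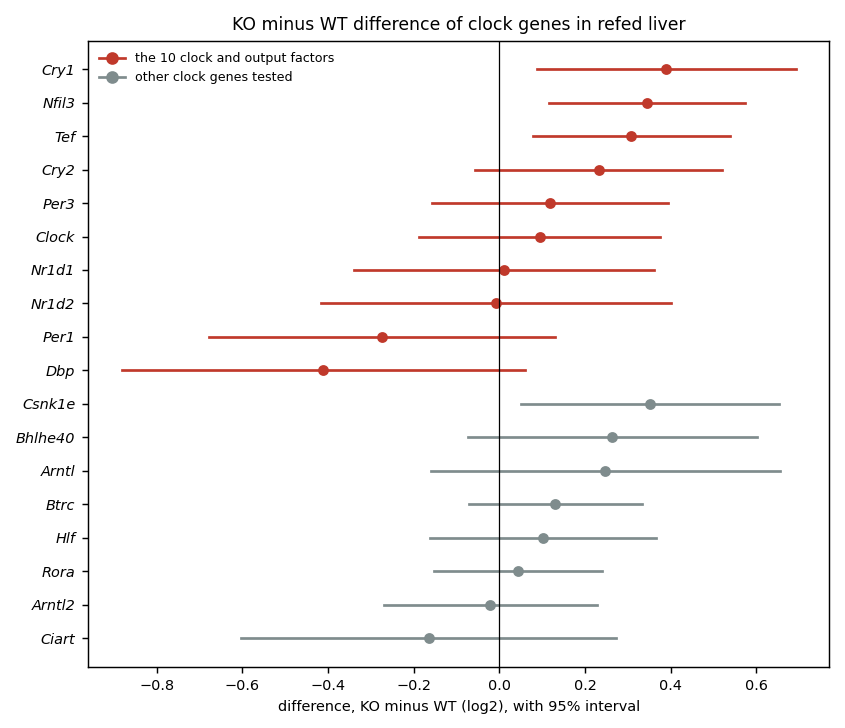
Difference of KO minus WT on the log2 scale (x axis) for the 10 clock and output factors and for the 8 other clock genes tested (y axis); points are the limma estimates and lines their 95% intervals, unadjusted. The intervals of Cry1, Nfil3, Tef and Csnk1e lie above 0, and no gene drawn passed after adjustment over all genes.

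The members varied unequally between mice of the same genotype. The pooled within-genotype SD was 0.34 for Dbp, 0.29 for Nr1d2, 0.28 for Per1 and 0.23 for Nr1d1, at percentiles 96.0, 93.0, 92.6 and 86.0 of the genes tested, whose median was 0.14. For Nfil3 and Tef it was 0.10 each, at percentiles 25.6 and 27.7. Cry1, Cry2, Clock and Per3 lay between, from 0.16 to 0.18. The 4 members with the widest spread were thus dusk-peaking ones. Of the other dusk-peaking members, Tef had a narrow spread and Per3, at 0.16, lay at percentile 60.4.

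As a check on the time of sampling, each gene was centred on its mean over the 6 mice. The 6 dusk-peaking members (Nr1d1, Nr1d2, Dbp, Tef, Per1, Per3) averaged -0.17, 0.17 and -0.06 in KO mice 1 to 3, against 0.01, 0.17 and -0.12 in WT mice 1 to 3. The 3 night-peaking members (Cry1, Nfil3, Clock) averaged 0.17, -0.0052 and 0.25 in KO mice 1 to 3, against -0.25, -0.06 and -0.10 in WT mice 1 to 3. The dusk average minus the night average was -0.34, 0.17 and -0.31 in KO mice 1 to 3, against 0.27, 0.23 and -0.02 in WT mice 1 to 3. KO mice 1 and 3 lay below every WT mouse, and KO mouse 2 lay among the WT mice. The means were -0.16 ± 0.29 in KO and 0.16 ± 0.16 in WT (SD, n = 3 each), a difference of -0.32 given without a test. It came mostly from the night-peaking genes, whose average differed by 0.28, with the dusk-peaking average at -0.04. Neither group moved as one. Among the night-peaking genes Cry1 was at 0.39 and Nfil3 at 0.34, and Clock at 0.09. Among the dusk-peaking genes Dbp was at -0.41 and Per1 at -0.27, Tef at 0.31 and Per3 at 0.12, and Nr1d1 and Nr1d2 at 0.01 and -0.0083.

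**Figure D3:**
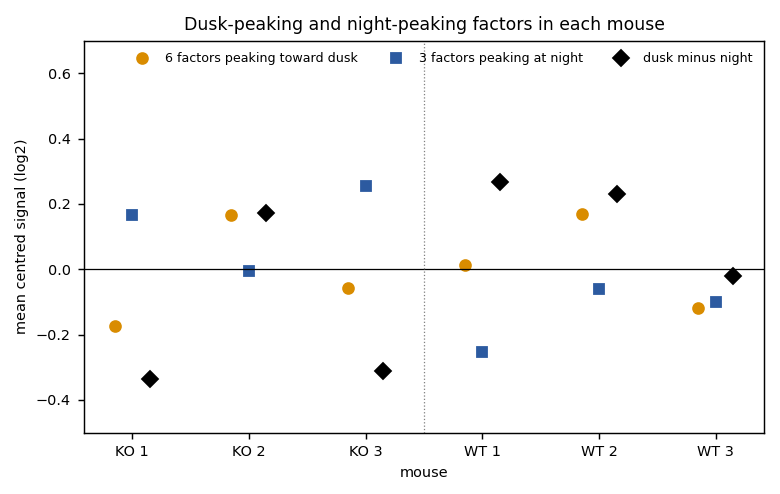
Mean centred log2 signal (y axis) in each of the 6 mice (x axis) of the 6 dusk-peaking members, the 3 night-peaking members and the dusk minus the night average. The dusk minus night value was negative in KO mice 1 and 3, at -0.34 and -0.31, and positive in KO mouse 2, WT mouse 1 and WT mouse 2.

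Of the clock genes outside these averages, Arntl and Ciart ordered the mice in a like way in part, while Hlf did not. Arntl, which encodes BMAL1 and peaks toward dawn, was at 5.50, 4.86 and 5.33 in KO mice 1 to 3, against 4.75, 5.19 and 5.01 in WT mice 1 to 3. It was highest in KO mice 1 and 3, where the dusk minus night value was lowest, and KO mouse 2 lay within the WT range. Ciart, a repressor of CLOCK and BMAL1 that is high with Dbp and Nr1d1, was at 4.40, 4.86 and 4.12 in KO mice 1 to 3, against 4.77, 4.74 and 4.36 in WT mice 1 to 3. It was highest in KO mouse 2 and lowest in KO mouse 3, as KO mouse 3 was for Dbp. Nfil3 and Tef did not follow this order, since all 3 KO mice were high for both, KO mouse 2 the highest. Hlf, a D-box activator, was at 6.43, 6.34 and 6.16 in KO mice 1 to 3, against 6.03, 6.27 and 6.32 in WT mice 1 to 3. It was highest in KO mouse 1, where Dbp was low, and lowest in WT mouse 1, where Dbp was highest. The hour of sampling is not given for any mouse, and its part in these differences was not tested.

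**Figure D4:**
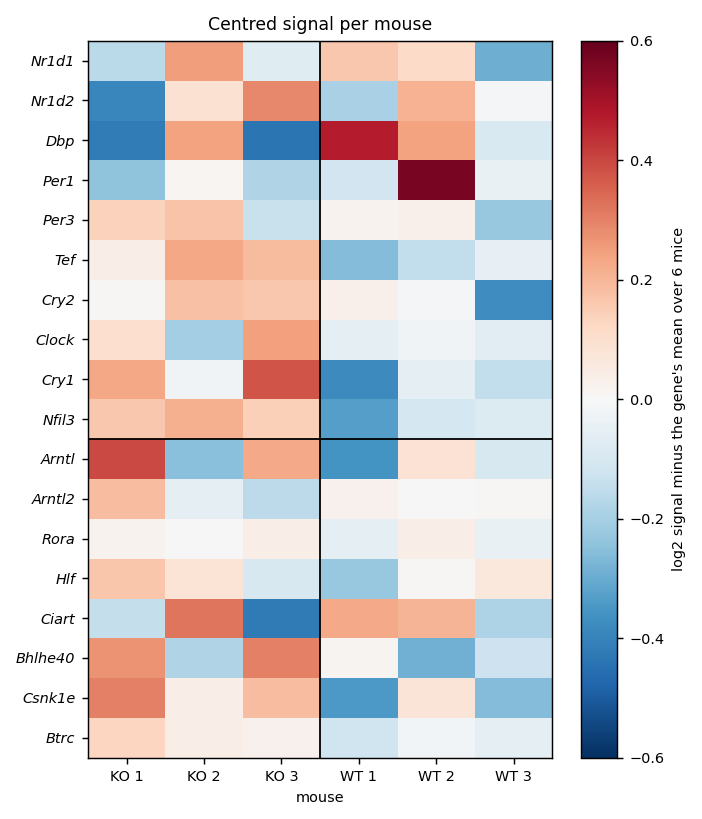
Centred log2 signal (colour, log2 signal minus the gene's mean over the 6 mice) of the 10 clock and output factors, above the line, and of the 8 other clock genes tested, below it, in each mouse (x axis). KO mice 1 and 3 share low Dbp and high Arntl and Bhlhe40, while KO mouse 2 has high Dbp and low Arntl. Hlf is highest in KO mouse 1 and lowest in WT mouse 1.

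Of 17 other clock genes listed, 13 had a single-symbol probe set and 8 were tested, with 0 passing in limma (1 at an unadjusted p under 0.05, adjusted p at least 0.480). Their median difference was 0.12, with 6 positive and 2 negative. Csnk1e, a casein kinase that marks PER proteins for degradation, was at 0.35 ± 0.13 (SE), close to the filter with means of 3.56 in KO and 3.21 in WT. Bhlhe40, an E-box repressor, was at 0.26 ± 0.15, Arntl at 0.25 ± 0.18 and Btrc, part of the ligase that degrades PER, at 0.13 ± 0.09. Hlf, the third D-box activator beside Dbp and Tef, was at 0.10 ± 0.12 and Rora, which activates through ROR elements, at 0.04 ± 0.09. Arntl2 was at -0.02 ± 0.11 and Ciart at -0.16 ± 0.19. Single mice moved several of these values: omitting KO mouse 1 gave 0.11 for Arntl, omitting WT mouse 1 gave 0.13, and omitting KO mouse 2 gave 0.43 for Arntl and 0.42 for Bhlhe40. Hlf lay between 0.01, when WT mouse 1 was omitted, and 0.18, when KO mouse 3 was; it was 0.04 when KO mouse 1 was and 0.16 when WT mouse 3 was. Npas2, Rorb, Bhlhe41, Fbxl21 and Timeless were under the filter, and the remaining genes of the list, Per2 and Csnk1d among them, were not analysed here.

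Among genes known to follow the clock in liver, 10 of 12 listed were tested and 0 passed (2 at an unadjusted limma p under 0.05), with a median difference of 0.07. Noct, a rhythmic phosphatase also called nocturnin, was at 5.75, 6.18 and 6.45 in KO mice 1 to 3, against 6.79, 6.40 and 7.04 in WT mice 1 to 3, with KO mouse 3 just above WT mouse 2 (-0.62 ± 0.21, SE; limma adjusted p = 0.423). Elovl3, a fatty acid elongase repressed by REV-ERB alpha, was at 8.56, 8.07 and 8.96 in KO mice 1 to 3, against 8.07, 7.33 and 8.09 in WT mice 1 to 3, and the groups overlapped at KO mouse 2 (0.70 ± 0.26; limma adjusted p = 0.469, with a difference of 0.45 without WT mouse 2). These genes thus lay on both sides of 0.

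Because glucocorticoids can set Per1 and the liver clock, 8 of their target genes were also read, all tested, with 0 passing (2 at an unadjusted limma p under 0.05) and a median of -0.05. Zbtb16, a zinc finger factor, was at 6.58, 6.35 and 7.15 in KO mice 1 to 3, against 3.92, 4.35 and 6.25 in WT mice 1 to 3. All KO mice were above all WT mice and WT mouse 3 lay near them (1.85 ± 0.52, SE; limma adjusted p = 0.357). Without WT mouse 3, singled out by its immediate early values, Zbtb16 rose by 2.56 (limma adjusted p = 0.00337). Sgk1, a kinase induced by glucocorticoids and by serum, was at 4.39, 4.26 and 4.32 in KO mice 1 to 3, against 4.98, 5.001 and 4.59 in WT mice 1 to 3 (-0.54 ± 0.13; limma adjusted p = 0.306), and without WT mouse 3 it fell by 0.67 (limma adjusted p = 0.0475). In that fit 51 of the 11090 genes tested passed. WT mouse 3 was also the WT mouse nearest to the KO mice for Zbtb16 and Sgk1, so the fit without it describes them and is no test of them. The differences of Zbtb16 and Sgk1 had opposite signs, and Per1, highest in WT mouse 2 alone, had the pattern of neither. Of the other targets, Mt2 and Klf9 were, like Per1, highest in WT mouse 2, with Mt2 at 5.72 there and at most 5.11 elsewhere. Dusp1 was highest in WT mouse 1, Tsc22d3 in WT mouse 3, and Fkbp5 and Tat in KO mouse 3. The relation of Per1 to these targets was not tested.

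In bulk liver, fewer cells of a type and less RNA per cell cannot be told apart. Bile duct markers did not overlap between the genotypes in summed signal. Of 5 listed, 4 had a probe set, 2 of them under the filter (Krt19 and Epcam), and their summed linear signal was 81.5 to 96.2 in KO and 63.5 to 80.3 in WT. Most of it was Sox9, at 0.41 ± 0.14 (SE; limma adjusted p = 0.437), whose groups, like those of Cry1, Nfil3 and Tef, did not overlap. Krt7 at 0.15, Krt19 at -0.05 and Epcam at -0.09 had overlapping groups, so the pattern of the sum was that of Sox9. The part of these cells in the result was not tested. Summed Kupffer cell markers overlapped, at 291.5 to 455.8 in KO and 258.6 to 486.7 in WT, as did sinusoidal endothelial markers, at 383.9 to 432.9 in KO and 381.8 to 457.0 in WT. Stellate cell markers also overlapped, at 410.7 to 490.4 in KO and 405.0 to 526.9 in WT, while all B cell and neutrophil markers with a probe set were under the filter. Of 5 pancreatic acinar markers 4 had a probe set, 1 of them under the filter, and their summed signal was 43.7 to 51.7 in KO and 48.1 to 110.02 in WT. WT mouse 1 was the highest, and it was also the lowest mouse for Cry1, Nfil3 and Tef. Without it their differences were 0.30, 0.27 and 0.25, and the part of acinar cells in them was not tested.

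Genes outside the members were ranked by how closely they followed Dbp and Nr1d1 over the 6 mice, by the root mean square difference of centred log2 values. Nearest to Dbp were Thbd (0.126), Acot4, Zfp729b, Apol7a and Gbp11 (0.156). Nearest to Nr1d1 were Gp9 (0.0601), Txlna, Zfp142, Tdrd7 and Syne1 (0.0739). With 1 mouse left out, 1 or 2 of the 5 nearest to Dbp and 0 to 2 of those nearest to Nr1d1 remained, so the ranking rests on single mice.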

How the data were processed

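Liver RNA of 6 mice was measured, per the labels' protocols, on a whole-transcript Affymetrix array after Trizol extraction. The authors deposited log2 values of 41345 probe sets, 1 column per mouse; the sources used here do not state the summary or normalization, and the log2 scale was read from the column maxima of 12.1 to 12.2. Of the probe sets, 23521 carried 1 symbol, 1814 several and 16010 none; symbols were updated through Entrez numbers (23328 matched, GRCm38.p6). The highest-mean probe set stood for each of 22180 genes, and the 11090 at or above 2.99 were tested.

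KO and WT were compared with limma 3.58.1 in R 4.3.3 (lmFit, eBayes, two-sided, no covariate), with Benjamini-Hochberg adjustment over all tested genes at 0.05. Differences are KO minus WT. The fit was tested on simulated data with 200 changed genes. Single values also had an exact permutation test.

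The members and lists were chosen with earlier results of these data known. The naming rule took all members, Gpr146, Alb, all other clock genes tested, genes of unadjusted p under 0.05 in the output, glucocorticoid and immediate early lists, and the 5 genes nearest to Dbp and to Nr1d1. Sox9, Krt7, Krt19, Epcam, Mt2, Klf9, Dusp1, Tsc22d3, Fkbp5 and Tat were named after their values were seen. The labels name 1 mouse per sample and no batch.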

Additional observations from a re-analysis of the deposited data

How the results depend on the processing

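In 15 alternatives (14 for Tef and Nfil3, under the limit of the upper 25% of signal), 0 members passed; 7 of the 10 kept their direction and 3 did not, with an adjusted p of at least 0.734 where the sign had changed. Nr1d1 was at -0.037 after quantile normalization and -0.0033 after median centring, and ran from -0.13 to 0.094 with a mouse left out; Nr1d2 ran from -0.15 to 0.19 and Clock from -0.0052 to 0.22. Among other clock genes Rora was at -0.0015 after quantile normalization, and with a mouse left out Arntl2 ran from -0.12 to 0.053 and Ciart from -0.37 to 0.0053. Over all genes 4 passed, against 0 in the upper 25% of signal, 1 with the pseudocount of 16, and 1 to 51 with a mouse left out, 51 being without WT mouse 3. With a mouse left out, 0 to 2 clock output and glucocorticoid genes passed, Zbtb16 and Sgk1 without WT mouse 3. Fitting the replicate block gave 1 gene over all, and 0 members. The deviations of same-numbered mice correlated at 0.06, -0.19 and 0.15 across genes, and KO mice 1 and 2 correlated best with another number. Deviations from means of 3 mice cannot decide whether same-numbered mice were paired. Of the 5 genes nearest to Dbp, 3 were shared after quantile normalization and 2 with the pseudocount, and for Nr1d1 2 and 3, comparisons chosen after seeing the data. The dusk minus night difference ran from -0.48 to -0.23. With 3 mice per genotype, differences near the median SE of 0.11 cannot be resolved. Larger ones also did not pass, among them Cry1 at 0.39, Nfil3 at 0.34 and Tef at 0.31.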
